A study of Mus musculus with 12 samples.

Results

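Interferon-response and MHC class I genes were followed in 12 RNA libraries of cells sorted from mouse prostate and labelled luminal. The list was set by gene name, with earlier results of these data known. It held 37 genes, and all 37 were found among the 48795 gene identifiers deposited. Of these, 35 passed the filter on low counts and were tested, among 15270 tested genes in all. All mice were C57BL/6 wild types, 6 to 8 weeks old, and the labels name no transgene or treatment in any group. After removal of lineage-positive cells (CD31 on endothelium, CD45 on leukocytes, Ter119 on erythroid cells), flow sorting split the rest by LY6D and by the amount of SCA1, the Ly6a product. The 6 populations were LY6D+ and LY6D- cells, each at SCA1low, SCA1int (intermediate) and SCA1high, with 2 libraries of each. The libraries were made with a kit that reads the 3' ends of polyadenylated RNA, so a count is a tally of 3' tags and is not divided by transcript length. Whether a replicate was 1 animal or a pool is not stated in the labels, so p-values here measure only the library-to-library spread, which may be technical.

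Type I and type II interferons act through cell-surface receptors and the kinases bound to them. The signal reaches genes through short promoter elements, the interferon-stimulated response element (ISRE) and the gamma-activated site (GAS). IRF1, itself induced by interferon, and NLRC5 drive the MHC class I genes, whose products show peptides from inside the cell to CD8 T cells. Most nucleated cells hold MHC class I, epithelium included, and endothelial cells hold it at high level. Immunoproteasome subunits, the TAP transporter and tapasin (Tapbp) supply and load the peptides.

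Total counts ran from 8436185 to 20022077 per library. Ly6d was at 36.95 to 397 CPM (counts scaled to library size with TMM factors) in the 6 LY6D+ libraries, against 0.433 to 3.85 CPM in the 6 LY6D- libraries, and each state's Ly6a levels were ordered as the SCA1 labels say. The luminal keratins Krt8 and Krt18 were at 66.4 CPM or more in every library, but markers of other cell types go against a purely luminal content. Of the basal keratins, Krt5 was at 186 to 608 CPM and Krt15 at 1063 to 2734 CPM in LY6D+ libraries, against 3.76 to 199 CPM and 26.4 to 1087 CPM in LY6D- libraries. The LY6D- SCA1high libraries held endothelial markers, whose values stand beside the members below. The populations are therefore named by their sort. Some libraries had counts at genes that were otherwise specific to another library. LY6D- SCA1low replicate 2 held a median 13.0% of the counts of LY6D- SCA1high replicate 1 at 37 genes that were specific to that SCA1high library, members left out. LY6D+ SCA1int replicate 2 held 13.3% of the counts of LY6D+ SCA1high replicate 2 at 55 such genes. LY6D- SCA1high replicate 2 held 7.87% of the counts of LY6D- SCA1low replicate 1 at 83 genes, and all other such shares were 3.45% or less. How these counts came there was not tested, and counts carried over cannot be told apart from expression by the library's own cells. Results were therefore also computed after subtracting such shared counts over all pairs of libraries, and without these 3 recipient libraries. Both alternatives were chosen after seeing the data.

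The members were highest together in LY6D- SCA1high cells. Of the 35 tested members, 32 (91.4%) had their highest mean CPM there, where 18.2% of all tested genes did. In 18 members (51.4%) both LY6D- SCA1high libraries lay above the other 10 libraries, against 4.36% of all tested genes. The summed level of the 37 members was 2023 to 2338 CPM in LY6D+ SCA1low, 1473 to 1574 in LY6D+ SCA1int and 2392 to 2680.3 in LY6D+ SCA1high libraries. In LY6D- cells the sum was 2534 to 2671 CPM at SCA1low, 3563 to 4282 at SCA1int and 8265 to 8539 at SCA1high. The sum thus went up with SCA1 in LY6D- cells without overlap between levels, and in LY6D+ cells it was lowest at SCA1int. H2-D1, H2-K1 and B2m together made 40.9% to 73.5% of the sum. The exceptions to the shared maximum were Cxcl10, highest in LY6D+ SCA1int, Stat2, highest in LY6D+ SCA1low, and Ifi35, highest in LY6D- SCA1low cells. In bulk RNA, fewer cells that express a gene and less of its RNA per cell cannot be told apart.

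**Figure D1:**
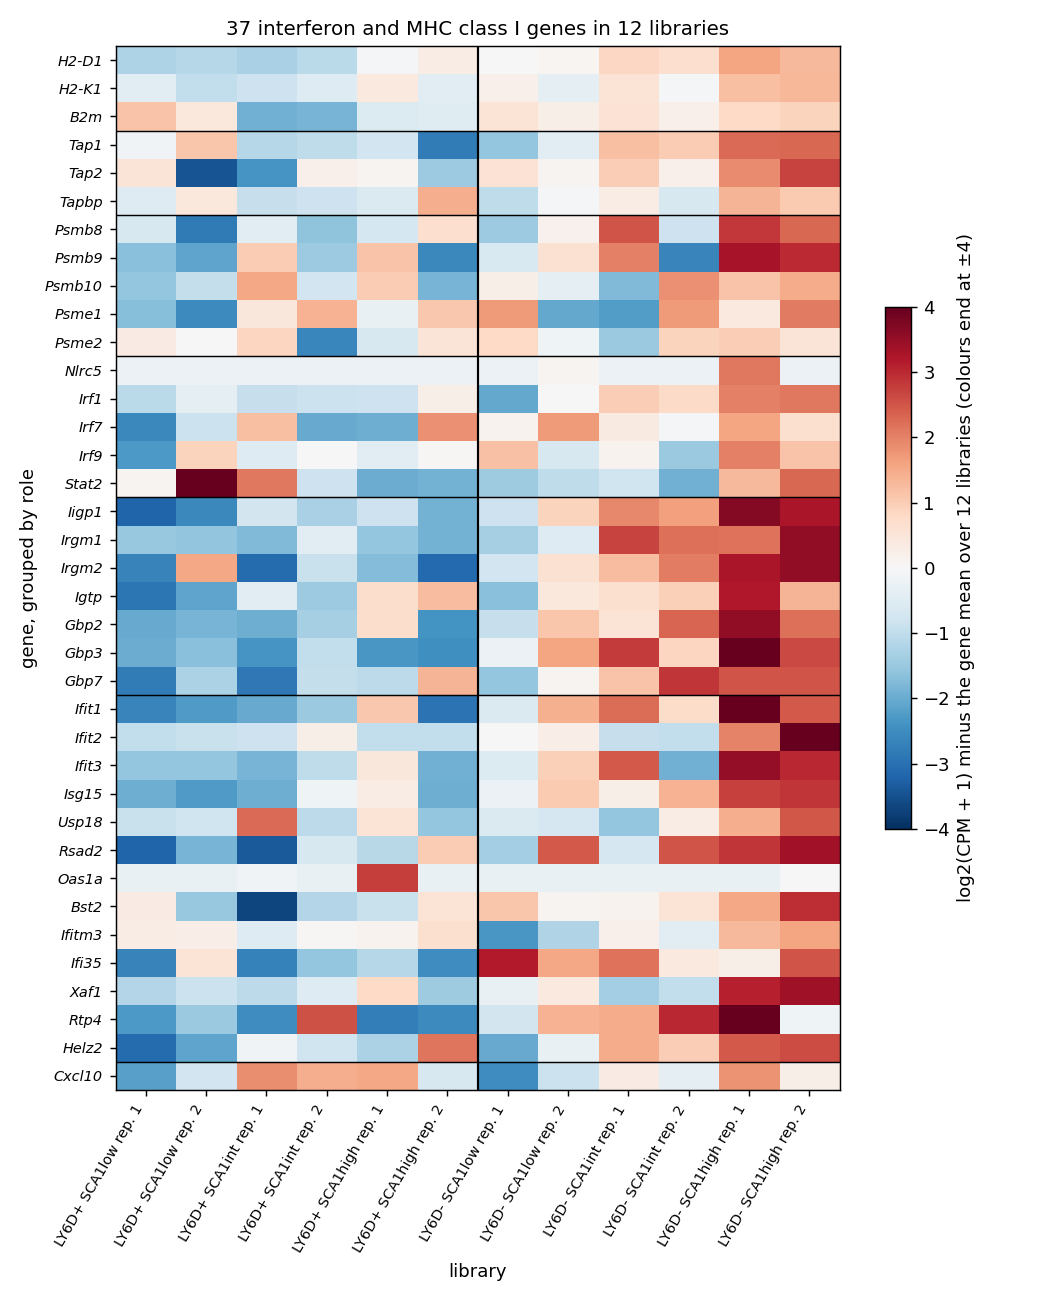
Each row is 1 of the 37 genes, in blocks by role, and each column 1 library, LY6D+ left of LY6D- and SCA1low to SCA1high within each. Colour gives log2(CPM + 1) minus the gene's mean over the 12 libraries; the 2 LY6D- SCA1high columns at the far right are where 32 of the 35 tested genes had their highest mean CPM (colours end at ±4).

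Markers of endothelium moved with the members, although CD31+ cells were to be removed by the sort. The summed level of 18 endothelial markers was 32.4 to 158 CPM in LY6D+ SCA1low, 20.5 to 298 in LY6D+ SCA1int and 253 to 498 in LY6D+ SCA1high libraries. In LY6D- cells it was 383 to 849.9 CPM at SCA1low, 1476 to 1868 at SCA1int and 4562 to 5217 at SCA1high. Pecam1, the gene of CD31, was at 401 to 573 CPM in LY6D- SCA1high libraries, and all 18 markers had negative log2 fold changes of LY6D+ against LY6D- cells, averaged over the SCA1 levels, with a median of -3.44 and 10 called lower. In SCA1high against SCA1low cells, averaged over LY6D, 17 of the 18 had positive ones with a median of 2.62. The part of endothelial RNA in the members' levels was not tested. The endothelial sum was lowest in LY6D+ SCA1int replicate 1, at 20.5 CPM. There H2-D1 was at 172, H2-K1 at 339, B2m at 129.6, Irf1 at 152, Ifitm3 at 117 and Cxcl10 at 166 CPM. In the same library Gbp3, Ifit3, Ifit2, Irgm2 and Irgm1 were at 0.0539 to 0.216 CPM. Replicate 2 of that population had an endothelial sum of 298 CPM. Its H2-D1 was at 199, H2-K1 at 414, B2m at 137, Irf1 at 160, Ifitm3 at 177 and Cxcl10 at 125 CPM. Its Gbp3, Ifit3, Ifit2, Irgm2 and Irgm1 were at 0.900 to 4.29 CPM. Some other members, not all given here, were higher in replicate 1. Iigp1 was at 44.2 and 30.1 CPM in replicates 1 and 2, Irf7 at 59.9 and 5.45, Psme2 at 80.8 and 6.46. Replicate 2 also held 2.87% of the counts of LY6D- SCA1high replicate 2 at 290 genes specific to that library. After subtraction of the shared counts, its Gbp3, Ifit3, Irgm2, Irgm1, Iigp1, Irf7 and Psme2 counts were 0. What these 2 LY6D+ SCA1int libraries say of endothelial RNA was not tested. The sum of leukocyte markers was lowest where the members were highest, but it rests on few genes. Of the 18 markers, 6 were high enough to test. Cd52 alone was at 204 CPM in LY6D+ SCA1low replicate 1, where the sum was 217 CPM. Csf1r was at 12.1 and 6.01 CPM in LY6D- SCA1high libraries, within its range of 3.65 to 53.8 CPM in the others. The part of leukocyte RNA in the members' levels was not tested. The leukocyte sum over 18 genes was 17.3 to 217 CPM in LY6D+ libraries, against 41.6 to 94.1 CPM in LY6D- SCA1low and 12.4 to 16.4 CPM in LY6D- SCA1high libraries. Ptprc, the gene of CD45, was at 0.216 CPM or less in every library. Basal epithelial markers, 12 genes, summed to 2804 to 5715 CPM in LY6D+ libraries, against 337 to 2499 CPM in LY6D- libraries, and their part in the members' levels was likewise not tested. The sum of 22 constitutive proteasome genes, which are not interferon-induced, was 1252 to 2251 CPM over the 12 libraries. No member of that list was called in the LY6D or SCA1 averages (2 and 3 at an unadjusted p below 0.05). Of all 15270 tested genes, 3116 and 1843 had such a p in these averages.

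**Figure D2:**
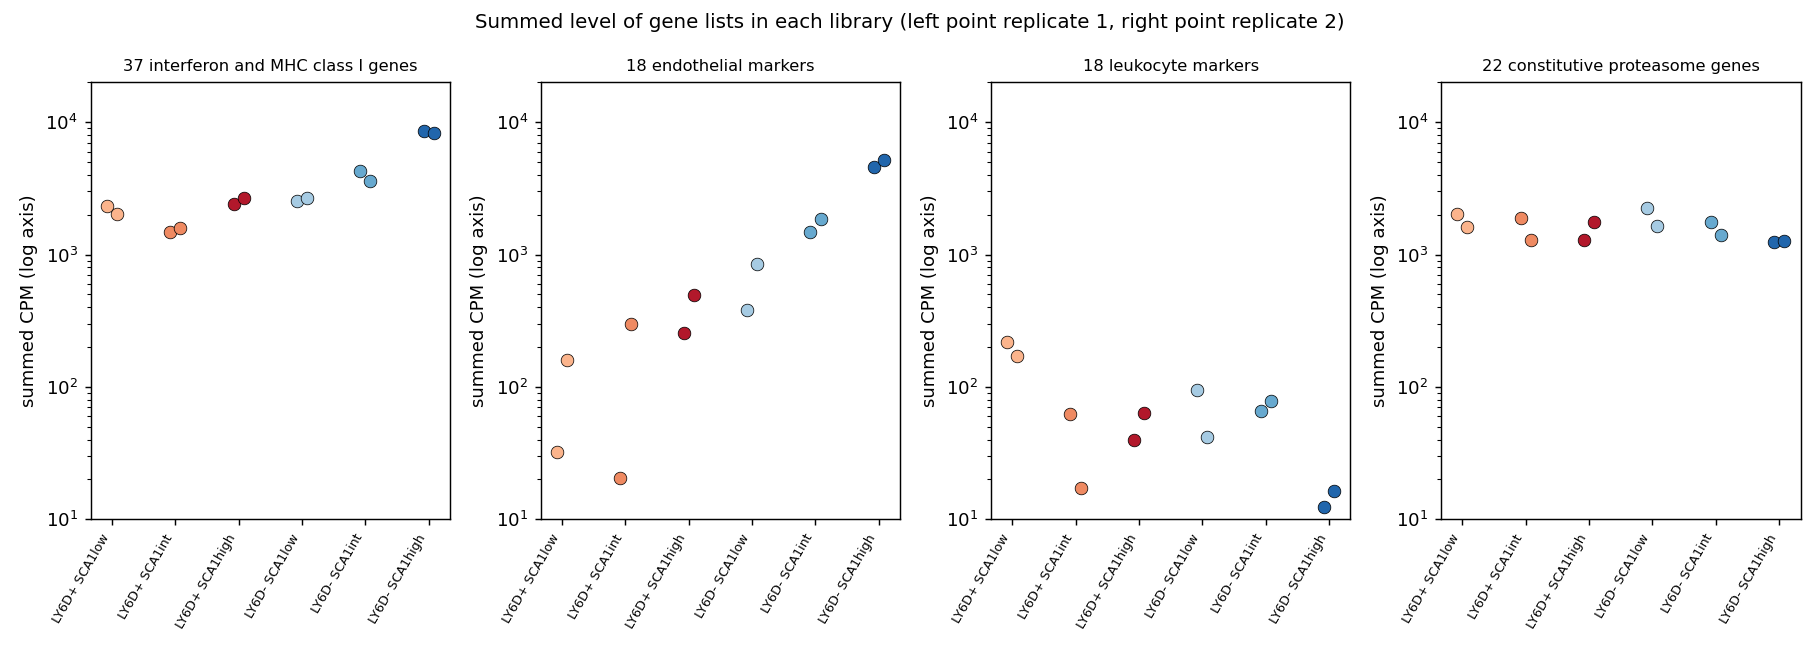
Summed CPM (log axis) of the 37 members, 18 endothelial markers, 18 leukocyte markers and 22 constitutive proteasome genes, 1 point per library, LY6D+ populations left of LY6D- ones. The member and endothelial sums are both highest in LY6D- SCA1high libraries (8265 to 8539 and 4562 to 5217 CPM), where the leukocyte sum is lowest (12.4 to 16.4 CPM).

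LY6D+ cells had less RNA of 8 members than LY6D- cells, and no member was called higher. Averaged over the SCA1 levels, 8 of the 35 tested members were called, all lower in LY6D+ cells: H2-D1, H2-K1, B2m, Irf1, Iigp1, Gbp3, Isg15 and Rsad2. The class I genes and Irf1 were 1.92-fold (H2-K1) to 2.81-fold (H2-D1) lower, Isg15 6.19-fold, Rsad2 11.4-fold and Iigp1 12.3-fold. Of all tested genes, 1.21% were called lower and 1.27% higher. Negative log2 fold changes were found in 32 members, positive ones in Stat2, Ifitm3 and Cxcl10, and the members' median was -1.62, against 0.03 over all tested genes. An unadjusted p below 0.05 was reached by 20 of the 35 members and by 3116 of the 15270 tested genes. Gbp3 alone had all 6 LY6D+ libraries below all 6 LY6D- libraries, as did 0.57% of all tested genes, and the reverse order was seen in none of the members and 0.812% of all tested genes. Calls rest on edgeR (quasi-likelihood test), with p-values adjusted by the Benjamini-Hochberg method across the 15270 genes and a threshold of 0.05. The value after ± is the standard error of a log2 fold change. The counts of called members moved with the processing, as did those of all genes. DESeq2 called 20 members lower, and 2208 of all genes in either direction, against 379 by edgeR. Limma on the deposited normalised values called 3 members and 218 genes. With edgeR, 3 members and 143 genes were called after subtraction of the shared counts, 4 and 291 without the 3 recipient libraries, and 5 and 397 without LY6D- SCA1low replicate 2 and LY6D+ SCA1high replicate 2.

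**Figure D3:**
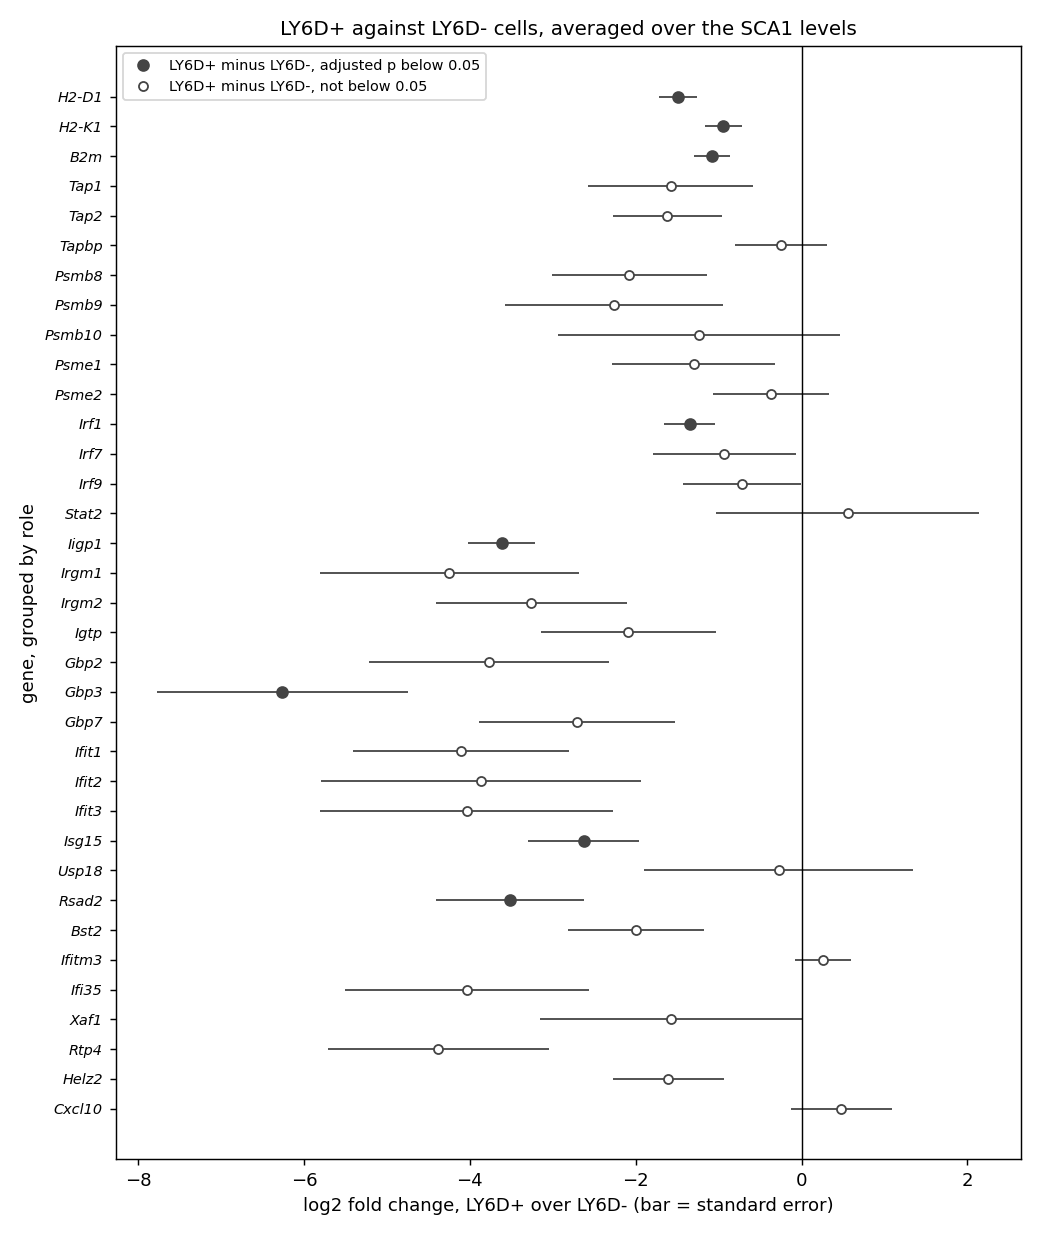
Log2 fold changes of LY6D+ over LY6D- cells, averaged over the SCA1 levels, for the 35 tested members in order of role; bars are standard errors and filled points have an adjusted p below 0.05. All 8 filled points lie left of 0, and 3 open points (Stat2, Ifitm3, Cxcl10) lie right of it.

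Promoter letters are shown for 5 called members, chosen because they hold a match to 1 of the elements named above. Of the 37 members, 32 had a promoter in the RefSeq table for GRCm38.p6. The 250 bases before the annotated start were searched on both strands. The ISRE core, GAAA followed after any 2 bases by GAAA again, was present in 15 of the 32 members (46.9%) and in 936 of 27025 genes (3.46%). The GAS core TTCNNNGAA was present in 8 of 32 members and in 2197 genes (8.13%). Neither core was found in the searched bases of H2-D1, H2-K1, Ifitm3 and Helz2, which were also called in a comparison. Only exact matches were searched, so this does not show that these genes lack a related element. Iigp1, also called, had no promoter in that table and was not searched. Matches of the ISRE core can overlap each other, and a match describes letters, not bound protein. Capitals mark the matches, on either strand, in windows read 5′ to 3′ along each gene's own strand.

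The windows were chr2:122147493-122147612 on the plus strand for B2m, chr11:53769868-53769987 on the plus strand for Irf1, chr3:142559924-142560025 on the plus strand for Gbp3, chr4:156200826-156200945 on the minus strand for Isg15 and chr12:26456508-26456627 on the minus strand for Rsad2, all on GRCm38.p6. B2m and Rsad2 held 1 ISRE core each, Gbp3 held 2 that overlap, Isg15 held 3 that overlap, and Irf1 held 1 GAS core and no ISRE core in the 250 bases.
B2m: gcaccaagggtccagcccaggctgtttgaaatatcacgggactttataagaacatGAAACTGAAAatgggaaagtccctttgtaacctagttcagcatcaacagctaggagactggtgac
Irf1: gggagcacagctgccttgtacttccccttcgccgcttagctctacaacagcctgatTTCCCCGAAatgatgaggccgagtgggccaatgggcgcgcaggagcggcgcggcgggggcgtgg
Gbp3: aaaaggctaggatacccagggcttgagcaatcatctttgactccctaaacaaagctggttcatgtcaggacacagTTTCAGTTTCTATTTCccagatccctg
Isg15: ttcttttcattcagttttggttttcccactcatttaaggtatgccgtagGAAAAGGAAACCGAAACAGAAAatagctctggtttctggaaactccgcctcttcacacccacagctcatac
Rsad2: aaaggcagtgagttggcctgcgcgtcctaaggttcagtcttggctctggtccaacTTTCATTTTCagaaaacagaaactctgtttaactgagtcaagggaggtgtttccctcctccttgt

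MHC class I consists of a heavy chain, here H2-K1 or H2-D1, and the light chain B2m, which every class I molecule needs. All 3 genes fell in LY6D+ cells. H2-D1 lies at chromosome 17, 35262730 to 35267499 (GRCm38, GENCODE M21), on the plus strand. H2-D1 had 178 and 189.6 CPM at SCA1low, 172 and 199 at SCA1int and 405 and 519 at SCA1high in LY6D+ cells. In LY6D- cells, H2-D1 had 424 and 442 CPM at SCA1low, 741 and 666 at SCA1int and 1255 and 1042 at SCA1high. Within each SCA1 level both LY6D+ libraries were below both LY6D- libraries, and over all levels only LY6D+ SCA1high replicate 2 passed the lowest LY6D- libraries. The averaged log2 fold change was -1.49 ± 0.23, adjusted p = 0.000149 by edgeR's test, and the call was kept in all 21 alternatives. H2-K1 lies at chromosome 17, 33996017 to 34000347, on the minus strand. H2-K1 had 431 and 304 CPM at SCA1low, 339 and 414 at SCA1int and 776 and 435 at SCA1high in LY6D+ cells. In LY6D- cells, H2-K1 had 688 and 459.5 CPM at SCA1low, 869 and 572 at SCA1int and 1370.1 and 1507 at SCA1high. At every SCA1 level the LY6D+ pair was below the LY6D- pair, though the ranges overlapped over all levels. The averaged difference was -0.94 ± 0.22, adjusted p = 0.0185 by edgeR's test. Without LY6D- SCA1int replicate 1 its adjusted p was 0.0704, it was 0.0808 after subtraction of the shared counts, and 0.0603 with limma. H2-K1 and H2-D1 are related genes of similar sequence, so how reads were shared between them and with other class I genes is uncertain.

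B2m, at chromosome 2, 122147686 to 122153083 on the plus strand, is the gene whose window with 1 ISRE core is printed above. B2m had 1111 and 672 CPM at SCA1low, 129.6 and 137 at SCA1int and 339 and 356 at SCA1high in LY6D+ cells. In LY6D- cells, B2m had 722 and 589 CPM at SCA1low, 743 and 569 at SCA1int and 871 and 935 at SCA1high. LY6D+ cells were lower without overlap at SCA1int and SCA1high, and at SCA1low the libraries overlapped. By edgeR's test B2m fell in LY6D+ cells on average (-1.08 ± 0.22, adjusted p = 0.0056) and within SCA1int (-2.30 ± 0.40, adjusted p = 0.00405), and both calls were kept in all 21 alternatives. Within SCA1low its log2 fold change was 0.44 ± 0.38, with an adjusted p of 0.603 by edgeR. H2-D1 was also called lower within SCA1int (-1.93 ± 0.40, adjusted p = 0.0262 by edgeR's test). That call was lost when any of the 4 SCA1int libraries or LY6D- SCA1high replicate 1 was left out (adjusted p 0.0508 to 0.326) and without the 3 recipient libraries (0.0567), with RLE size factors (0.0844) and with limma (0.121). H2-D1 and B2m were the 2 members called within SCA1int, where 0.183% of all tested genes were called lower.

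Of the genes that deliver and load peptides, Tap1 and Tap2, which form the TAP transporter, and Tapbp, which holds class I to it, none was called in any comparison. All 3 had negative averaged log2 fold changes of LY6D+ against LY6D- cells, from -1.62 to -0.25. Tap1 had 12.9 and 31.6 CPM at SCA1low, 5.88 and 6.46 at SCA1int and 7.91 and 1.18 at SCA1high in LY6D+ cells. In LY6D- cells, Tap1 had 4.19 and 10.0 CPM at SCA1low, 34.1 and 29.9 at SCA1int and 72.4 and 74.2 at SCA1high. Both LY6D- SCA1high libraries were above the other 10, and LY6D+ cells were above LY6D- cells at SCA1low. Tap2 was at 3.27 to 65.9 CPM over the LY6D+ libraries and at 49.3 to 302 CPM over the LY6D- libraries. Tapbp was at 33.8 to 178 CPM in LY6D+ and 31.7 to 166 CPM in LY6D- libraries. Tapbp overlaps Zbtb22 on the same strand and Tap1 overlaps Psmb9 on the opposite one, and whether counting used strand is not given in the sources used here.

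Psmb8, Psmb9 and Psmb10 encode the catalytic subunits that replace the constitutive ones in the immunoproteasome, and Psme1 and Psme2 encode the PA28 activator. All 5 averaged log2 fold changes of LY6D+ against LY6D- cells were negative, with a median of -1.30, and none was called. Psmb8 had 9.96 and 1.4 CPM at SCA1low, 11.5 and 4.5 at SCA1int and 9.4 and 26.2 at SCA1high in LY6D+ cells. In LY6D- cells, Psmb8 had 5.16 and 18.1 CPM at SCA1low, 95.8 and 8.58 at SCA1int and 119.9 and 82.3 at SCA1high. LY6D- SCA1high libraries were high, and the 2 LY6D- SCA1int libraries differed widely. Psmb9 had 72.2 and 57.0 CPM in LY6D- SCA1high libraries and 28.9 CPM at most in the other 10. Psmb10 was at 11.7 CPM or less in all libraries. Psme1 ran from 2.18 to 77.3 CPM and Psme2 from 6.46 to 89.7 CPM, with LY6D+ and LY6D- cells overlapping at each SCA1 level except for Psme2 at SCA1high.

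Among the transcriptional regulators, Irf1 was the member that changed. Irf1 lies at chromosome 11, 53770014 to 53778374 on the plus strand, and its printed window holds a GAS core. Irf1 had 135 and 219.8 CPM at SCA1low, 152 and 159.6 at SCA1int and 162 and 337 at SCA1high in LY6D+ cells. In LY6D- cells, Irf1 had 68.5 and 289 CPM at SCA1low, 573 and 488 at SCA1int and 1154 and 1245 at SCA1high. At SCA1int and SCA1high every LY6D+ library was below every LY6D- library, and at SCA1low the LY6D- libraries lay on both sides of the LY6D+ ones. The averaged log2 fold change was -1.35 ± 0.31, adjusted p = 0.0133 by edgeR's test. Without the 3 recipient libraries it was -0.92 with an adjusted p of 0.171, and the adjusted p was 0.289 after subtraction and 0.0856 with limma. Within SCA1low the log2 fold change was -0.01. A gene on the opposite strand, Gm17334, overlaps Irf1.

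Stat2 and Irf9, partners in the factor that binds the ISRE, and Irf7, the amplifier of type I interferon production, were not called. Stat2 had 3.52 and 67.7 CPM at SCA1low, 17.0 and 1.32 at SCA1int and 0.045 and 0.118 at SCA1high in LY6D+ cells. In LY6D- cells, Stat2 had 0.538 and 1.04 CPM at SCA1low, 1.39 and 0.0858 at SCA1int and 9.22 and 19.6 at SCA1high. Stat2 was above 10 CPM in 3 libraries of 3 different populations, with its highest value in LY6D+ SCA1low replicate 2, and its replicates lay far apart in LY6D+ SCA1low, LY6D+ SCA1int and LY6D- SCA1int cells. Irf7 ran from 3.37 to 91.5 CPM and Irf9 from 7.05 to 158 CPM, with overlap of LY6D+ and LY6D- cells in both. Irf7 overlaps Phrf1 on the opposite strand and Irf9 overlaps Rnf31 on the same strand, so some of their reads may belong to the neighbour. Nlrc5, the class I transactivator, was too low to test: it had 52 counts in LY6D- SCA1high replicate 1, 3 in LY6D- SCA1low replicate 2 and 0 in the other 10. LY6D- SCA1low replicate 2 also had counts at genes otherwise specific to that SCA1high library.

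The interferon-induced GTPases act against parasites and bacteria in vacuoles, and the 7 members among them had a median averaged log2 fold change of -3.62 between LY6D+ and LY6D- cells, all negative. Iigp1 (Irga6), at chromosome 18, 60376027 to 60392634 on the plus strand, gave the smallest p of all members. Iigp1 had 7.28 and 11.7 CPM at SCA1low, 44.2 and 30.1 at SCA1int and 41.9 and 19.3 at SCA1high in LY6D+ cells. In LY6D- cells, Iigp1 had 41.6 and 140.0 CPM at SCA1low, 283 and 234 at SCA1int and 972 and 723 at SCA1high. At each SCA1 level the LY6D+ libraries were below the LY6D- libraries, and LY6D- SCA1low replicate 1 was the only LY6D- library within the LY6D+ range. The averaged difference was -3.62 ± 0.40, adjusted p = 8.74e-07 by edgeR's test. Iigp1 was also the only member called lower within SCA1high (-4.79 ± 0.73, adjusted p = 0.000757) and within SCA1low (-3.26 ± 0.68, adjusted p = 0.0155) by edgeR, where 0.124% and 0.0917% of all tested genes were called lower. After subtraction of the shared counts the averaged call was lost (-0.74, adjusted p 1). That fit rests on counts of 0 in both LY6D- SCA1low libraries and in 2 LY6D+ libraries. After subtraction the log2 fold change was -4.87 (adjusted p 0.729) within SCA1high and 6.21 (adjusted p 0.54) within SCA1low, the second a reversed sign that depends on those counts of 0. Without the 3 recipient libraries the averaged difference was -3.28 with an adjusted p of 7.73e-08. The call within SCA1low was lost without LY6D- SCA1low replicate 2 (-2.16, adjusted p 0.167) and without LY6D+ SCA1low replicate 1 (-3.04, adjusted p 0.0762). It was also lost with limma (0.14), without LY6D- SCA1low replicate 2 and LY6D+ SCA1high replicate 2 together (0.114) and without the 3 recipients (0.317). Within SCA1high the count of called members moved when single libraries were left out, and such counts are not read as results about the members. DESeq2 called 10 there, among 1132 of all genes, against 40 of all genes by edgeR.

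Gbp3, a guanylate-binding protein gene at chromosome 3, 142560026 to 142573209 on the plus strand, has a printed window with 2 ISRE cores. Gbp3 had 0.383 and 0.7 CPM at SCA1low, 0.0539 and 1.75 at SCA1int and 0.0899 and 0 at SCA1high in LY6D+ cells. In LY6D- cells, Gbp3 had 3.66 and 15.2 CPM at SCA1low, 37.1 and 8.93 at SCA1int and 94.4 and 33.3 at SCA1high. All LY6D+ libraries were below all LY6D- libraries. The LY6D+ libraries held 0 to 33 counts and the LY6D- libraries 34 to 1207, so the fitted averaged log2 fold change (-6.26 ± 1.52, adjusted p = 0.0205 by edgeR's test) rests on counts near 0 in LY6D+ cells. The call was lost without LY6D+ SCA1high replicate 2, LY6D+ SCA1int replicate 1, either LY6D+ SCA1low library or LY6D- SCA1high replicate 1, with adjusted p from 0.0529 to 0.106. The other alternatives that ended it were limma (0.054), subtraction (0.0845), leaving out the 3 recipients (0.111), and leaving out LY6D- SCA1low replicate 2 with LY6D+ SCA1high replicate 2 (0.0805). The other 5 GTPases, Gbp2, Gbp7, Igtp, Irgm1 and Irgm2, were not called. Gbp2 was at 0.118 to 8.63 CPM in LY6D+ libraries and at 2.15 to 67.5 CPM in LY6D- libraries, and Irgm1 at 0.118 to 2.01 CPM in LY6D+ and 0.645 to 47.7 CPM in LY6D- libraries. Irgm2 had 92.6 and 113 CPM in LY6D- SCA1high libraries and 39.3 CPM at most elsewhere. Igtp was at 0.689 to 28.2 CPM in LY6D+ and 2.9 to 115 CPM in LY6D- libraries, and Gbp7 at 0.324 to 23.9 CPM in LY6D+ and 2.26 to 68.1 CPM in LY6D- libraries. For Gbp2, Igtp and Irgm1 the LY6D+ pair was below the LY6D- pair at each SCA1 level, and for Gbp7 and Irgm2 at SCA1int and SCA1high. Igtp and Irgm2 overlap on the same strand, so their reads may be divided in either way.

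Antiviral effectors and feedback genes made the largest group, with 13 members. Of 12 tested, 11 had negative averaged log2 fold changes of LY6D+ against LY6D- cells, with a median of -3.07, and Isg15 and Rsad2 were called. Isg15, a ubiquitin-like protein that is joined to other proteins, lies at chromosome 4, 156199424 to 156200818 on the minus strand, and its window holds 3 overlapping ISRE cores. Isg15 had 7.05 and 5.6 CPM at SCA1low, 7.17 and 27.1 at SCA1int and 37.3 and 7.06 at SCA1high in LY6D+ cells. In LY6D- cells, Isg15 had 25.8 and 63.8 CPM at SCA1low, 35.8 and 80.9 at SCA1int and 210.0 and 226 at SCA1high. The LY6D+ pair was below the LY6D- pair at each SCA1 level, and the ranges overlapped over all levels. By edgeR's test the averaged difference was -2.63 ± 0.67, adjusted p = 0.0306. It lost its call without LY6D+ SCA1high replicate 2, LY6D+ SCA1int replicate 1, LY6D+ SCA1low replicate 2, either LY6D- SCA1high library or LY6D- SCA1int replicate 2 (adjusted p 0.0573 to 0.113), and without the 3 recipient libraries (0.23). With limma the adjusted p was 0.0547, after subtraction 0.146, and without LY6D- SCA1low replicate 2 and LY6D+ SCA1high replicate 2 together 0.14.

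Rsad2 (viperin), which makes a chain-ending nucleotide, lies at chromosome 12, 26442746 to 26456452 on the minus strand and has a printed window with 1 ISRE core. Rsad2 had 1.07 and 4.2 CPM at SCA1low, 0.863 and 11.2 at SCA1int and 7.73 and 37.5 at SCA1high in LY6D+ cells. In LY6D- cells, Rsad2 had 6.35 and 102 CPM at SCA1low, 10.9 and 108 at SCA1int and 138 and 195 at SCA1high. LY6D+ cells were lower without overlap at SCA1low and SCA1high, and replicate 2 was the higher library in all 6 populations. The averaged difference was -3.52 ± 0.89, adjusted p = 0.028 by edgeR's test. Without LY6D- SCA1int replicate 2 the adjusted p was 0.105, without LY6D- SCA1low replicate 2 it was 0.0766, and without the 3 recipient libraries it was 0.244. Limma gave 0.131, and leaving out LY6D- SCA1low replicate 2 with LY6D+ SCA1high replicate 2 gave 0.0557.

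Ifit1, Ifit2 and Ifit3, which bind viral RNA, had averaged log2 fold changes of -4.11, -3.87 and -4.04 in LY6D+ against LY6D- cells and were not called. Ifit1 had 0.23 and 0.622 CPM at SCA1low, 0.917 and 1.8 at SCA1int and 15.3 and 0 at SCA1high in LY6D+ cells. In LY6D- cells, Ifit1 had 4.19 and 19.8 CPM at SCA1low, 35.5 and 11.8 at SCA1int and 123 and 41.9 at SCA1high. Both LY6D- SCA1high libraries were highest for all 3 Ifit genes. Xaf1 had 24.9 and 30.2 CPM in LY6D- SCA1high libraries and 4.14 CPM at most elsewhere. Bst2 (tetherin) was at 0.971 to 35.5 CPM in LY6D+ and 25.8 to 193 CPM in LY6D- libraries, and Ifi35 at 0.0539 to 9.02 CPM in LY6D+ and 7.04 to 61.1 CPM in LY6D- libraries. Rtp4 had 40.7 CPM in LY6D+ SCA1int replicate 2 and 1.56 CPM at most in the other 5 LY6D+ libraries, against 3.33 to 121 CPM in LY6D- libraries. Its 2 LY6D- SCA1high libraries, at 121 and 5.38 CPM, lay far apart. Usp18, the brake on interferon receptor signalling, was at 17.2 CPM or less in every library. Oas1a was not tested: it had 162 counts in LY6D+ SCA1high replicate 1 and 5 at most in any other library.

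Ifitm3, which blocks virus entry at membranes, did not follow the LY6D pattern. Ifitm3 had 210.3 and 205 CPM at SCA1low, 117 and 177 at SCA1int and 187 and 263 at SCA1high in LY6D+ cells. In LY6D- cells, Ifitm3 had 33.2 and 72.9 CPM at SCA1low, 198 and 123 at SCA1int and 423 and 515 at SCA1high. At SCA1low the LY6D+ libraries were above the LY6D- libraries, at SCA1int they overlapped, and at SCA1high they were below. The averaged log2 fold change was 0.26 ± 0.34, with an adjusted p of 0.749 by edgeR. Cxcl10, the chemokine that attracts T cells through CXCR3, likewise had a positive averaged log2 fold change (0.48 ± 0.61) that was not called. Cxcl10 had 9.34 and 26.4 CPM at SCA1low, 166 and 125 at SCA1int and 135 and 28.8 at SCA1high in LY6D+ cells. In LY6D- cells, Cxcl10 had 7.21 and 24.5 CPM at SCA1low, 57.5 and 35.3 at SCA1int and 161 and 52.9 at SCA1high. LY6D+ SCA1int and LY6D- SCA1high replicate 1 libraries were among the highest, and both SCA1low populations were low. Cxcl10 overlaps Art3 on the opposite strand.

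**Figure D4:**
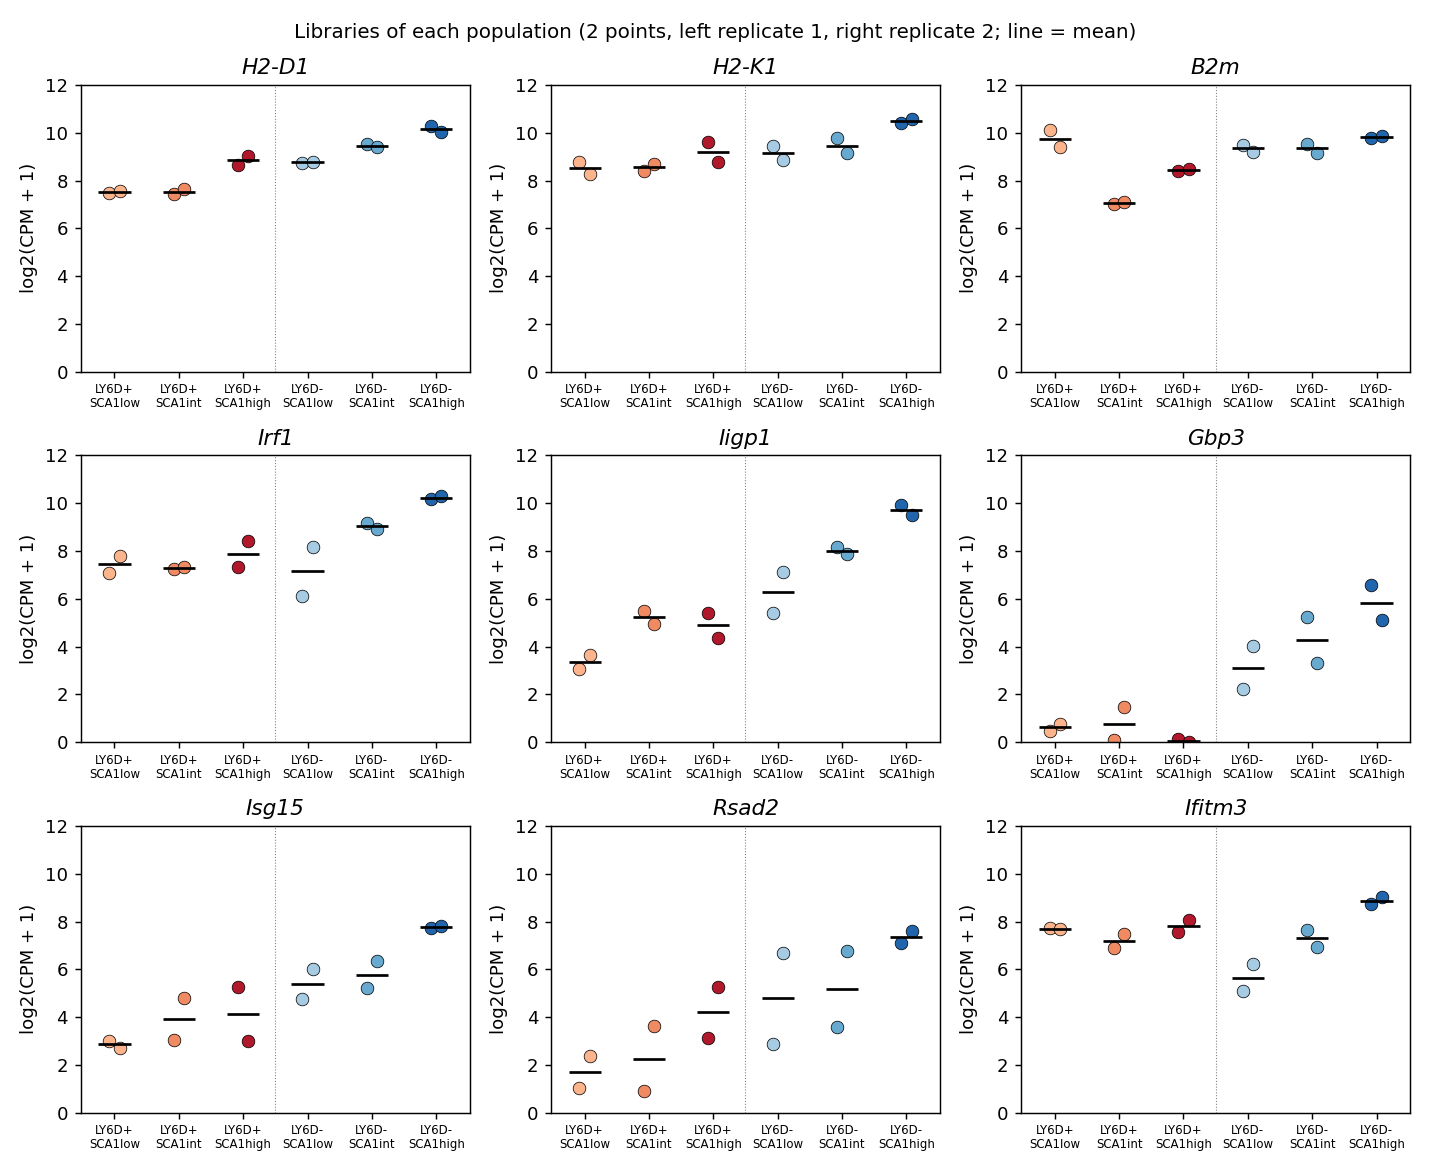
Level of 9 members as log2(CPM + 1), 1 point per library and a line at the mean of each pair, LY6D+ populations left of LY6D- ones and SCA1low to SCA1high within each. The LY6D- SCA1high pair lies above the other 10 libraries in all panels except those of B2m, where LY6D+ SCA1low replicate 1 is at 1111 CPM, and Gbp3.

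SCA1high cells had more RNA of 4 members than SCA1low cells, and no member was called lower. Averaged over LY6D, 4 of 35 tested members were called, all higher in SCA1high cells: H2-D1, Irf1, Iigp1 and Helz2. Of all tested genes, 0.432% were called higher and 0.779% lower. The members' median log2 fold change was 1.63, against 0.15 over all tested genes, and 29 of 35 were positive. H2-D1 had 405 and 519 CPM in LY6D+ SCA1high libraries, against 178 and 189.6 CPM in LY6D+ SCA1low libraries. In LY6D- cells it had 1255 and 1042 CPM at SCA1high, against 424 and 442 CPM at SCA1low. Neither LY6D state showed overlap, and the averaged log2 fold change was 1.37 ± 0.28, adjusted p = 0.00533 by edgeR's test. Without LY6D+ SCA1high replicate 2 the adjusted p was 0.07, and with RLE size factors 0.0501. The count of called members was 2 with RLE size factors, 7 with library size as the only scaling and 1 with limma. Library size as the only scaling moved the median log2 fold change of all tested genes by 0.48. The shares of all genes called under these settings are not set beside the counts. The counts are therefore not read as results about the members.

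Irf1 rose in SCA1high cells on average (1.62 ± 0.38, adjusted p = 0.0214 by edgeR's test), and its values within each LY6D state follow. In LY6D+ cells the SCA1high libraries (162 and 337 CPM) and the SCA1low libraries (135 and 219.8 CPM) overlapped, and in LY6D- cells they stood far apart (1154 and 1245 CPM against 68.5 and 289 CPM). The averaged call was lost without LY6D+ SCA1high replicate 2 (adjusted p 0.103) and without LY6D- SCA1low replicate 1 (0.0762), and also with RLE size factors (0.081), DESeq2 (0.0516), limma (0.12) and after subtraction (0.0981). Iigp1 rose as well (2.46 ± 0.47, adjusted p = 0.00284 by edgeR's test), with 41.9 and 19.3 CPM in LY6D+ SCA1high against 7.28 and 11.7 CPM in LY6D+ SCA1low libraries, and with 972 and 723 CPM in LY6D- SCA1high against 41.6 and 140.0 CPM in LY6D- SCA1low libraries. Neither state overlapped. Limma on the deposited normalised values was the only one of 21 alternatives that lost this averaged call. The log2 fold change ran up to 11.1 among the alternatives. After subtraction the Iigp1 counts were 0 in both LY6D- SCA1low libraries, so the call kept there depends on counts of 0.

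Helz2, a helicase and nuclear receptor coactivator, lies at chromosome 2, 181227615 to 181242027 on the minus strand. Helz2 had 2.68 and 6.15 CPM at SCA1low, 27.0 and 16.7 at SCA1int and 11.8 and 134 at SCA1high in LY6D+ cells. In LY6D- cells, Helz2 had 6.67 and 24.2 CPM at SCA1low, 84.9 and 60.5 at SCA1int and 168 and 185 at SCA1high. SCA1high libraries were above SCA1low libraries in both LY6D states, and the 2 LY6D+ SCA1high libraries differed more than any other pair of Helz2 values. Its averaged log2 fold change was 3.78 ± 0.89, adjusted p = 0.0237 by edgeR's test. Without LY6D+ SCA1high replicate 2 this became 2.36 with an adjusted p of 0.427. Leaving out LY6D+ SCA1low replicate 1, either LY6D- SCA1high library or LY6D- SCA1low replicate 1 also ended the call (adjusted p 0.0637 to 0.125), as did limma (0.122), leaving out LY6D- SCA1low replicate 2 with LY6D+ SCA1high replicate 2 (0.246), and leaving out the 3 recipients (0.0875).

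Within LY6D- cells, 3 members were called, all higher at SCA1high than at SCA1low, where 0.242% of all tested genes were called higher. Irf1 (2.75 ± 0.56, adjusted p = 0.00893), Iigp1 (3.22 ± 0.68, adjusted p = 0.0134) and Ifitm3 (3.14 ± 0.64, adjusted p = 0.0089) were these 3 by edgeR's test. Ifitm3 had 423 and 515 CPM in LY6D- SCA1high libraries, against 33.2 and 72.9 CPM in LY6D- SCA1low libraries. The members' median was 2.75, against 0.53 over all tested genes. All 3 calls were lost without LY6D- SCA1low replicate 1, with adjusted p-values of 0.136 for Irf1, 0.272 for Iigp1 and 0.207 for Ifitm3. Iigp1 also lost its call without LY6D- SCA1high replicate 1 (adjusted p 0.202) and with limma (0.1), Ifitm3 without LY6D- SCA1high replicate 2 (0.0778), and Irf1 after subtraction (0.0671). The count of called members also moved when single libraries were left out, and such counts are not read as results about the members.

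Within LY6D+ cells, edgeR called 0 of 35 members between SCA1high and SCA1low, where 0.327% of all tested genes were called in either direction. An unadjusted p below 0.05 was reached by 6 of the 35 members and by 1314 of the 15270 tested genes. With DESeq2 the count was 3 (2 higher and 1 lower), and with limma 0. The members' median log2 fold change there was 1.26, against -0.17 over all tested genes. The 18 endothelial markers had a median of 2.30 there, with 13 positive and 5 negative. B2m was at 339 and 356 CPM in LY6D+ SCA1high against 1111 and 672 CPM in LY6D+ SCA1low libraries, a log2 fold change of -1.36 ± 0.38 with an adjusted p of 0.252 by edgeR. The difference between the LY6D states in the effect of SCA1 was tested as an interaction. A negative interaction means a lower SCA1high over SCA1low ratio in LY6D+ cells. It was called for 0 members by edgeR and by limma and for 2 by DESeq2, and 0.0393% of all tested genes were called by edgeR. By edgeR, 6 of the 35 members had an unadjusted p below 0.05, as had 1160 of the 15270 tested genes. Leaving out LY6D- SCA1low replicate 2 gave 1 called member in the interaction and 1 within LY6D+ cells, and leaving out LY6D+ SCA1low replicate 2 gave 1 within LY6D+ cells. The shares of all genes called under these alternatives are not set beside the counts. The counts are therefore not read as results about the members. Among members, Ifitm3 had the smallest p, with an interaction of -3.03 ± 0.85 and an adjusted p of 0.65 by edgeR. Irf1 had -2.26 ± 0.75 and B2m -1.82 ± 0.54 on the same scale.

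**Figure D5:**
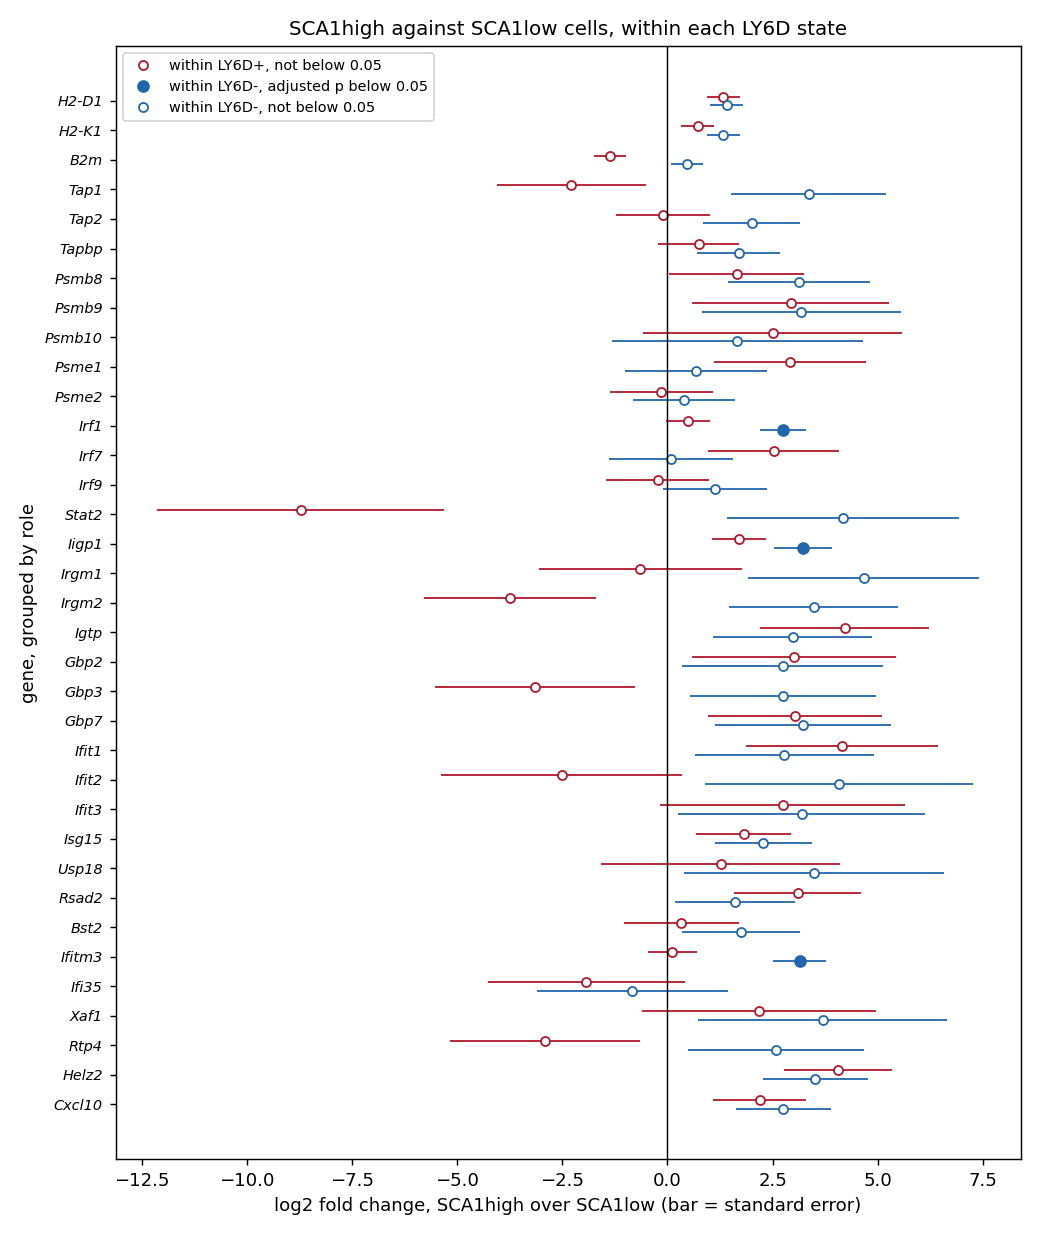
Log2 fold changes of SCA1high over SCA1low cells for the 35 tested members, within LY6D+ cells (red, upper of each pair) and within LY6D- cells (blue); bars are standard errors and filled points have an adjusted p below 0.05. The 3 filled points (Irf1, Iigp1, Ifitm3) are all within LY6D- cells, and none of the differences between the states passed its own test.

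Other genes of the pathway were read from lists named from textbook knowledge. These lists were chosen with earlier results of these data known, so they give no independent support. Of 39 tested interferon-induced genes that are not members, 8 were called lower and 0 higher in LY6D+ cells on average. Of all tested genes, 1.21% were called lower and 1.27% higher. Negative log2 fold changes were found in 34 of the 39, and the list's median was -3.10. Of 18 endothelial markers, 10 were called lower in the same comparison, with a median of -3.44. The part of endothelial RNA in this list was not tested. The 4 of the 39 with the smallest p were Gbp4, Phf11d, Ifi47 and Ifi44. Gbp4, another guanylate-binding protein, had 0.27 to 2.96 CPM over the 6 LY6D+ libraries and 5.38 to 170.0 CPM over the 6 LY6D- libraries, without overlap, and fell by 5.74 on the log2 scale (SE 1.13, adjusted p = 0.00378 by edgeR's test). Ifi47, an immunity-related GTPase, had 0.118 to 4.92 CPM in LY6D+ and 4.95 to 97.4 CPM in LY6D- libraries (-4.94 ± 1.25, adjusted p = 0.0282 by edgeR). Phf11d had -6.34 ± 1.41 (adjusted p = 0.0112) and Ifi44 had -5.32 ± 1.36 (adjusted p = 0.0303) by edgeR, also from LY6D+ libraries near 0. These fitted sizes depend on LY6D+ counts close to 0. In the average of SCA1high against SCA1low, 0 of the 39 were called, with 7 at an unadjusted p below 0.05. Of all 15270 tested genes, 1843 had such a p there.

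In LY6D+ against LY6D- cells on average, 3116 of all 15270 tested genes had an unadjusted p below 0.05. Of 20 receptor and signalling genes, 0 were called in that comparison (3 at an unadjusted p below 0.05, median log2 fold change -0.13). Their summed level was 1697 to 1753 CPM in LY6D- SCA1high libraries and 686 to 1337 CPM in the other 10. Of 16 tested RNA and DNA sensors, 0 were called (5 unadjusted, 13 negative, median -1.33). The 17 sensors summed to 471 to 823 CPM in LY6D- SCA1high libraries and 80.5 to 306 CPM in the other 10. Both sums were thus highest in the population where the members were highest, without overlap. The interferon genes on the list were not detected beyond 1 count in any library, and none of the 10 listed ligands could be tested. The list also held Il18, a cytokine that induces interferon gamma: it had 30.2 CPM in LY6D- SCA1low replicate 2 and 0.43 CPM at most in the other 11 libraries. The 6 tested MHC class II genes had 0 calls (2 unadjusted), and the 10 genes of that list summed to 0.46 to 69.2 CPM over all libraries.

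Of 16 other class I and peptide-loading genes, the chaperones Calr and Pdia3 fell in SCA1high against SCA1low cells on average and none rose, while 10 of the 16 had a log2 fold change above 0 (median of the list 1.32). Calr (calreticulin) had 287 and 399 CPM in LY6D+ SCA1high libraries, against 1146 and 1058 CPM in LY6D+ SCA1low libraries. In LY6D- cells it had 319 and 459 CPM at SCA1high, against 3502 and 3124 CPM at SCA1low. Both states were separated, and in SCA1high cells Calr fell by 2.39 on the log2 scale (SE 0.24, adjusted p = 7.18e-08 by edgeR's test). Pdia3, the disulfide isomerase of the loading complex, fell by 1.75 (SE 0.34, adjusted p = 0.00407 by edgeR). In the same libraries 13 secretory luminal markers summed to 2119 to 5444 CPM in SCA1high cells of both LY6D states, against 20083 to 104140.0 CPM in SCA1low cells, and their part in the chaperones' levels was not tested. Calr was also the only 1 of the 16 called in the LY6D average, where it fell by 0.67 in LY6D+ cells (SE 0.18, adjusted p = 0.046 by edgeR). Within SCA1low its log2 fold change of LY6D+ against LY6D- cells was -1.59 ± 0.32 (adjusted p = 0.0121 by edgeR).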

How the data were processed

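Counts per Ensembl gene were used as deposited by the authors. The submitters' processing notes name the build mm10, the aligner STAR 2.5.1, the trimmer cutadapt 1.9.1, featureCounts from Subread, edgeR, Picard 1.96 and SAMtools 1.3.1. Not given in the sources used here: their order and settings, the annotation and the strand setting. A second deposited table held a normalised signal, which equals each count divided by the library's TMM-scaled size (largest relative difference 3.33e-16); it was used only with limma on log2(value + 1).

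Counts were filtered by edgeR's default rule per population, leaving 15270 genes, and fitted with edgeR 4.0.16 under R 4.3.3 (scaling by TMM, a mean per population, quasi-likelihood test, Benjamini-Hochberg adjustment, threshold 0.05). The fit had 6 residual degrees of freedom and a common dispersion of 1.65, so replicates varied widely. All 12 libraries entered every comparison and there were 8 comparisons. Totals of 8436185 to 20022077 counts set a floor (3 counts) per library. The members and lists were chosen with earlier results of these data known. All members were named; members called in any comparison were given for each library, and of other lists up to 4 called genes with the smallest p. The alternatives were other scalings, no filter, the replicate number as a block, DESeq2 1.42.0, limma 3.58.1, each library left out in turn, and 2 libraries chosen earlier as doubtful left out. After the data were seen, 2 more were added: subtraction of shared counts over all pairs of libraries, and leaving out the 3 recipient libraries. A gene counted as specific to a library if it had 300 counts or more there, at most 0.3 of that in any other and a median of at most 0.02 of it. Gene positions are from GENCODE M21 on GRCm38, and promoter letters from RefSeq on GRCm38.p6.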

Additional observations from a re-analysis of the deposited data

How the results depend on the processing

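Each of the 19 calls of a member in a comparison was recomputed under 21 alternatives, giving 399 values, of which 329 stayed called in the same direction, 69 were no longer called and 1 reversed. The reversed value was Iigp1 within SCA1low after subtraction, at 6.21, where both LY6D- SCA1low libraries had counts of 0. H2-D1 and B2m in the LY6D average and B2m within SCA1int were the 3 calls kept in all alternatives.

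The count of called members in LY6D+ against LY6D- cells on average, 8, was 5 without LY6D- SCA1low replicate 2 and LY6D+ SCA1high replicate 2, 20 with DESeq2, 3 with limma, 3 after subtraction and 4 without the 3 recipient libraries. Within SCA1high, 1 became 2 with library size as the only scaling, 2 with no filter, 2 with the replicate block, 2 without the 2 doubted libraries, 10 with DESeq2, 0 after subtraction and 2 without the 3 recipients. Within SCA1int, 2 became 1 with RLE size factors, 4 without the 2 doubted, 1 with limma and 1 without the 3 recipients. Within SCA1low, 1 became 0 without the 2 doubted, 7 with DESeq2 (6 lower and 1 higher), 0 with limma and 0 without the 3 recipients, and after subtraction 0 members were lower and 1 higher. In SCA1high against SCA1low cells on average, 4 became 2 with RLE, 7 with library size and 1 with limma. Within LY6D+ cells, 0 became 1 with library size, 3 with DESeq2 and 1 without the 3 recipients. Within LY6D- cells, 3 became 5 with library size. For the interaction, 0 became 1 without the 2 doubted, 2 with DESeq2, 1 after subtraction and 1 without the 3 recipients. The cause of these changes was not tested. DESeq2 also called more of all genes than edgeR in the LY6D average and within SCA1high, as given above. Where a count under an alternative stands without the share of all genes, it is not read as a result about the members.

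Leaving out each library in turn gave 6 to 10 called members in the LY6D average, 1 to 5 within SCA1high, 1 to 4 within SCA1int, 0 to 1 within SCA1low, 1 to 6 in the SCA1 average, 0 to 1 within LY6D+, 0 to 5 within LY6D- and 0 to 1 for the interaction. Each replicate number goes with its own prefix in the labels' descriptions (HN6 and HN7), whose meaning is not stated. Pairing by number was not established: 2 of 15 correlations of deviations passed 0.1 (range -0.28 to 0.21), while for 8 of 12 libraries the highest correlation was with another library of the same number, a hint from the data only. With the replicate number as a block the counts were 9, 2, 2, 1, 6, 0, 3 and 0 in the same order.

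Scaling moved the median log2 fold change of all tested genes by up to 0.51, in SCA1high against SCA1low within LY6D- cells with library size as the only scaling, and the members' medians kept their sign. With 2 libraries per population and a wide spread, a member that was not called is not shown to be equal between groups. Values near the floor of 3 counts carry counting error that these libraries cannot reduce.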
